A study of Homo sapiens with 21 samples.

Results

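SH-SY5Y cells that carried APP-V717F and had received AG494 were compared with wild-type SH-SY5Y cells that had received only vehicle. The comparison takes in 3 arrays labelled APP-V717F with AG494 (APP_AG494) and 3 arrays labelled wild type with DMSO (WT_DMSO), 6 of the 21 arrays, chosen by their titles and by no measured value. SH-SY5Y is an established human neuroblastoma line that can be made to take on features of neurons, and each array, an Affymetrix PrimeView chip, read 25 ng of total RNA. The study measured 7 groups of 3 arrays from 3 independent experiments, and 4 of its other groups are also used here: APP-V717F cells with vehicle (APP_DMSO), wild-type cells with AG494 (WT_AG494), and APP-V717F and wild-type cells with NOSCA (APP_NOSCA and WT_NOSCA), a compound given as the labels write it. The remaining group, wild-type cells with PALBO (WT_PALBO, the compound again as labelled), enters the fit and the choice of probe sets and is not compared. According to the labels every culture was kept in a neurobasal medium with B27 and exposed to retinoic acid (10 µM) together with BDNF (50 ng/mL) until differentiated, which took 3 to 4 days, and compound or vehicle (0.1% DMSO) was present for 72 h. The labels give no dose of AG494, do not say how the mutation was brought into the line, and do not say whether the mutated cells are 1 clone. A difference between the lines may therefore hold differences between clones as well as the mutation, and these cannot be told apart.

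APP encodes the amyloid precursor protein, and V717F is a mutation near its gamma-secretase cleavage site known from familial Alzheimer's disease. AG494 belongs to the tyrphostins, small inhibitors of the tyrosine kinase of the EGF receptor, a receptor that signals to ERK and to the cell cycle. Interferon-stimulated genes, which recur in the results, form the antiviral programme that cells switch on through the JAK-STAT pathway, and genes of antigen presentation by MHC class I belong to the same response. The comparison asks what is left of the difference between the lines once the mutated cells have been treated, and what the treatment added to it. A comparison of APP_AG494 with WT_DMSO alone cannot separate genotype from treatment. Many results are therefore set beside APP_DMSO against WT_DMSO, the genotype under vehicle, or APP_AG494 against APP_DMSO, the treatment in mutated cells. Those comparisons share arrays with one another, and their values are given side by side and not as independent evidence. Where only APP_AG494 against WT_DMSO is given, genotype and treatment are not separated.

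Values are the deposited log2 intensities, so that a difference of 1 is a doubling, and 1 probe set was used for each of 18132 genes. A gene is said to have risen, fallen or been called where limma gave a Benjamini-Hochberg adjusted p under 0.05, and ± gives the standard error of a log2 fold change. The 3 values of a group are its arrays of run 1, 2 and 3, the runs being the title numbers 1 to 10, 11 to 20 and 21 to 30. Nothing in the labels ties an array to a named culture. The p-values rest on the spread between arrays within groups, pooled over all 21 arrays of the 7 groups after differences between runs were taken out. In RNA from whole cultures, fewer cells of a kind and less RNA per cell cannot be told apart.

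The cells carried the marks of their origin in both groups. Of 12 sympathetic neuroblast markers 10 were measured, and HAND2 and PHOX2A, transcription factors of sympathetic neurons, averaged 12.74 and 12.22 in APP_AG494 against 12.72 and 12.24 in WT_DMSO. Other markers lay further apart. CHGB and CHGA averaged 13.12 and 12.71 in APP_AG494 against 12.11 and 12.31 in WT_DMSO, and GATA2 and DBH 12.18 and 13.09 against 12.42 and 13.29. TH, the first enzyme of catecholamine synthesis, was the dimmest of the 10, at 7.51 in APP_AG494 and 8.94 in WT_DMSO on average. Of 16 immune cell markers 1 was called, CD68, and their mean per array was 6.22 to 6.30 in APP_AG494 against 6.10 to 6.23 in WT_DMSO, while among 12 Schwann cell and glial markers GAP43 rose and S100B fell. Array medians of the 6 arrays lay between 7.877 and 7.961. Outside these 6, APP_DMSO replicate 3 had the highest median of all 21 arrays (8.030). It also had the lowest weight (0.287) when limma weighted the arrays by quality. WT_DMSO replicate 3 stood apart from its group for p53 targets and hypoxia genes, and the counts of those lists are given without it as well.

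Between APP_AG494 and WT_DMSO 4693 of 18132 genes were called, which is 25.9% of those tested. Higher were 2429 genes (13.4%) and lower 2264 (12.5%), and most differences were small: 524 rises and 576 falls reached 1.5-fold, and 213 and 186 reached 2-fold. In APP_DMSO against WT_DMSO 1857 genes (10.2%) were higher and 1294 (7.14%) lower. In APP_AG494 against APP_DMSO 856 genes (4.72%) were higher and 1281 (7.06%) lower, a split that turned to 1212 and 894 when each array was centred on its median, and to 1139 and 1053 after a repeated quantile normalization. Without the replicate block 2830 genes were called between APP_AG494 and WT_DMSO, all of them among the 4693, and leaving out run 1 or run 2 left 2838 and 2636. The 2137 genes called between APP_AG494 and APP_DMSO were 861 without the replicate block, 558 without run 2, 1285 and 1079 without run 1 and run 3, and 1385 and 1208 without APP_AG494 replicate 2 and replicate 3. Without APP_DMSO replicate 3 they were 1490, with 687 higher and 803 lower. Counts of list members with runs or arrays left out, given below, were made only against WT_DMSO.

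The 10 largest rises included 6 members of the interferon list, genes of antigen presentation and a chemokine, and the 10 largest falls included a neuropeptide, a growth factor, an opioid receptor and a homeodomain factor. IFITM1, a membrane protein that blocks the entry of viruses, read 10.37, 11.23 and 11.07 on the APP_AG494 arrays and 5.83, 5.75 and 5.97 on the WT_DMSO arrays (log2 fold change 5.04 ± 0.24, adjusted p = 1.2e-10). TAP1, the transporter that loads peptides onto MHC class I, read 10.14, 10.81 and 10.69 on the APP_AG494 arrays and 5.65, 5.73 and 5.77 on the WT_DMSO arrays (log2 fold change 4.83 ± 0.23, adjusted p = 1.2e-10). CCL2, the chemokine that draws monocytes, read 12.90, 12.80 and 13.01 on the APP_AG494 arrays and 8.44, 8.54 and 7.52 on the WT_DMSO arrays (log2 fold change 4.73 ± 0.26, adjusted p = 6.1e-10). In these 3 genes every APP_AG494 array lay more than 3 log2 units above every WT_DMSO array. ELFN1, a postsynaptic protein that organises glutamatergic synapses onto interneurons, read 6.71, 7.37 and 6.63 on the APP_AG494 arrays and 11.29, 11.04 and 10.85 on the WT_DMSO arrays (log2 fold change -4.16 ± 0.16, adjusted p = 1.8e-11). CUX2, a homeodomain factor known from upper cortical layers, read 7.13, 7.16 and 6.65 on the APP_AG494 arrays and 11.05, 10.96 and 10.89 on the WT_DMSO arrays (log2 fold change -3.99 ± 0.13, adjusted p = 2e-12). VIP, a neuropeptide of autonomic neurons, read 4.80, 5.06 and 5.25 on the APP_AG494 arrays and 8.22, 7.89 and 8.16 on the WT_DMSO arrays (log2 fold change -3.05 ± 0.18, adjusted p = 1.9e-09). In the 3 falls every APP_AG494 array lay more than 2 log2 units under every WT_DMSO array.

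**Figure D1:**
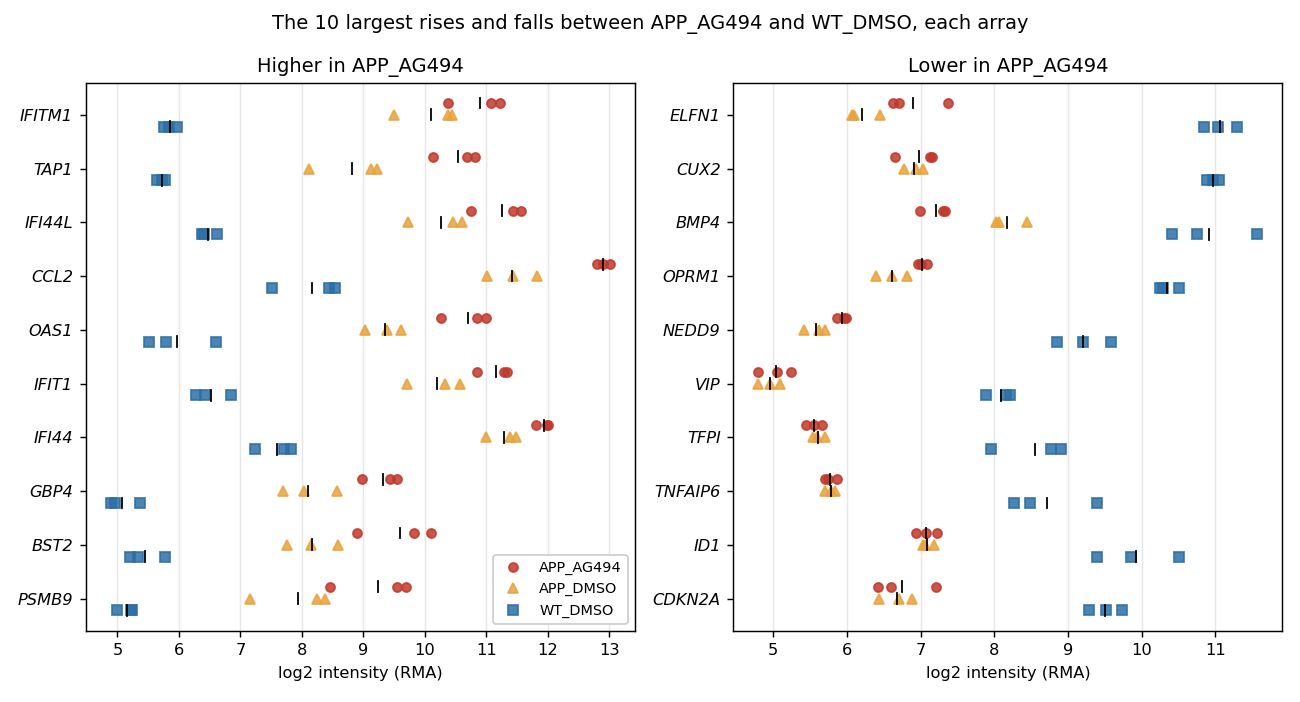
The 10 genes with the largest rise and the 10 with the largest fall between APP_AG494 and WT_DMSO, one dot per array on the log2 intensity axis for APP_AG494, APP_DMSO and WT_DMSO, with a black tick at each group's mean. In all 20 genes the APP_AG494 and WT_DMSO dots do not overlap, IFITM1 differing by 5.04 and ELFN1 by -4.16, and the APP_DMSO dots lie on the side of APP_AG494.

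What was left of the genotype difference was measured on genes chosen from other arrays. Between APP_NOSCA and WT_NOSCA, which share no array with APP_AG494, APP_DMSO or WT_DMSO, 2680 genes (14.8%) were called. In APP_AG494 against WT_DMSO 1653 of them (61.7%) were called in the same direction, 37 in the opposite direction, and 990 were not called. Against the same WT_DMSO arrays APP_DMSO gave 1643, 9 and 1028. Over all genes 13.4% were higher and 12.5% lower in APP_AG494 than in WT_DMSO, and 10.2% and 7.14% in APP_DMSO. Signed so that the NOSCA direction is positive, the median log2 fold change of the 2680 genes was 0.33 in APP_AG494 and 0.33 in APP_DMSO. In the direct comparison of APP_AG494 with APP_DMSO 364 of the 2680 were called in the NOSCA direction and 320 against it. Their median was 0.0056, whose sign changed under 4 alternatives. Of all genes 4.72% were higher and 7.06% lower in that comparison. The plain median difference between APP_AG494 and WT_DMSO over all genes was 0.02. It is not signed by the NOSCA direction and so is no background for the signed medians.

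Of the 2680 genes 273 differed at least 2-fold between the NOSCA groups, and 262 of these were called in the same direction in APP_AG494 against WT_DMSO. Of the other 11, 10 were not called and 1, CHRND, was called in the opposite direction. The median signed difference was 1.45 in APP_AG494 and 1.44 in APP_DMSO, and it was 1.57, 1.43 and 1.36 over the 3 runs in APP_AG494. The 123 genes that were higher in the mutated line had a median of 1.66 in APP_AG494 and 1.53 in APP_DMSO, and in the direct comparison of APP_AG494 with APP_DMSO 48 of them were higher and 27 lower. For the 150 genes that were lower in the mutated line the medians were 1.29 in APP_AG494 and 1.38 in APP_DMSO, and in the direct comparison 18 of them were lower and 19 higher. EBF3 and NPPC were among the 10 genes that were not called.

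**Figure D2:**
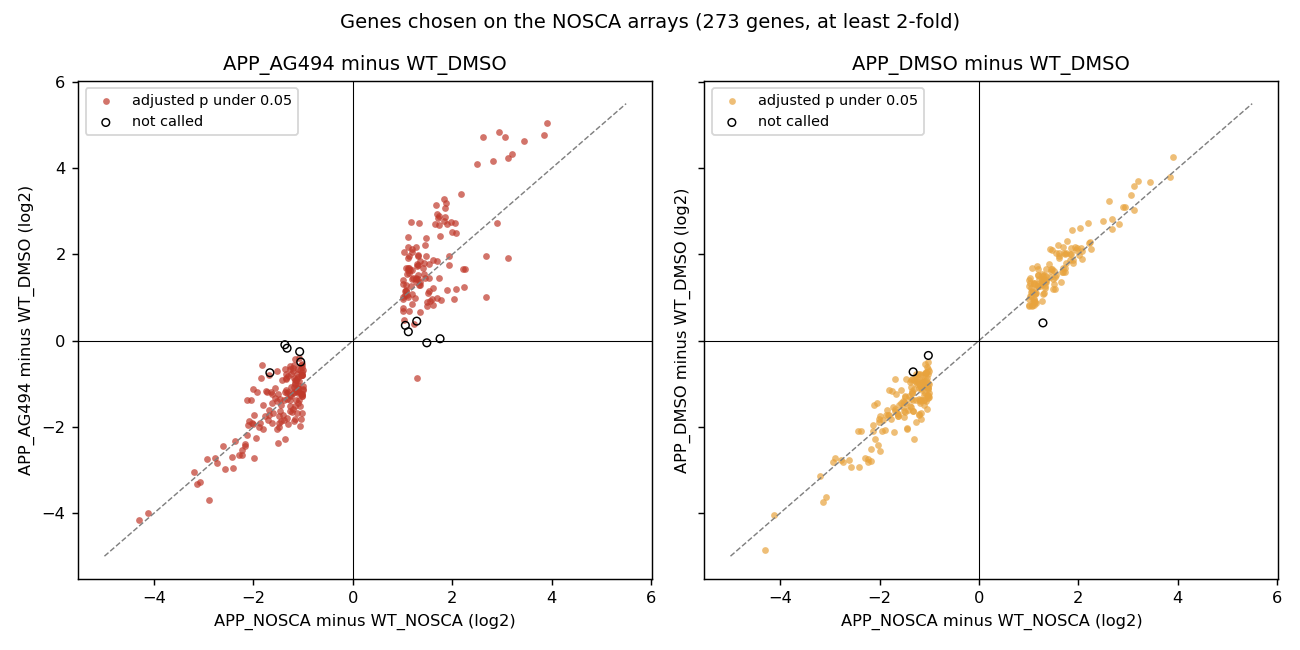
The 273 genes that differed at least 2-fold between APP_NOSCA and WT_NOSCA, with that log2 difference on the x axis and, on the y axis, APP_AG494 minus WT_DMSO (left) and APP_DMSO minus WT_DMSO (right). The dashed line marks equal differences, and open circles mark the genes that were not called, 10 on the left and 3 on the right. On the left 262 genes were called with the same sign as between the NOSCA groups, and CHRND is the filled point with the opposite sign.

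Several of the largest falls were not called between treated and untreated mutated cells. OPRM1, the mu-opioid receptor, read 7.09, 6.96 and 7.01 in APP_AG494, 6.61, 6.39 and 6.82 in APP_DMSO and 10.50, 10.29 and 10.25 in WT_DMSO (log2 fold change against WT_DMSO -3.33 ± 0.17, adjusted p = 3.6e-10). NEDD9, a scaffold of focal adhesions that retinoic acid induces in neuroblastoma cells, read 5.96, 5.87 and 5.99 in APP_AG494 against 9.58, 9.20 and 8.85 in WT_DMSO (log2 fold change -3.27 ± 0.16, adjusted p = 2.2e-10). TFPI, an inhibitor of tissue factor, read 5.67, 5.45 and 5.55 in APP_AG494 against 8.91, 8.77 and 7.96 in WT_DMSO (log2 fold change -2.99 ± 0.14, adjusted p = 9.5e-11). None of the 3 was called between APP_AG494 and APP_DMSO, with log2 differences of 0.41, 0.36 and -0.06. TNFAIP6, a hyaluronan-binding protein of inflamed tissue, differed by -2.94 ± 0.23 in APP_AG494 and -2.93 ± 0.23 in APP_DMSO. CDKN2A, whose products p16 and ARF restrain the cell cycle, differed by -2.76 ± 0.22 in APP_AG494 and -2.82 ± 0.22 in APP_DMSO. Among the 10 largest falls ELFN1 was the one that was higher in APP_AG494 than in APP_DMSO at the threshold (log2 fold change 0.69 ± 0.16, adjusted p = 0.009), yet remained far under the WT_DMSO level.

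In BMP signalling a ligand and its targets were lower. BMP4, a ligand that binds BMP receptors, read 6.99, 7.31 and 7.33 in APP_AG494 against 11.57, 10.75 and 10.41 in WT_DMSO (log2 fold change -3.70 ± 0.25, adjusted p = 1.4e-08), and it was lower than in APP_DMSO as well (-0.97 ± 0.25, adjusted p = 0.019). ID1, a direct target of BMP receptors and an inhibitor of differentiation factors, read 7.23, 6.94 and 7.07 in APP_AG494, 7.18, 7.03 and 7.06 in APP_DMSO and 10.50, 9.86 and 9.39 in WT_DMSO (log2 fold change against WT_DMSO -2.83 ± 0.14, adjusted p = 2.3e-10), and the treated and untreated mutated cells did not differ detectably (-0.01). Of 30 measured members of BMP and TGF-beta signalling 4 rose (13.3%) and 12 fell (40%), against 4 and 12 under vehicle. Over all genes 13.4% were higher and 12.5% lower in APP_AG494 than in WT_DMSO. The median of the members was -0.13, against 0.02 over all genes. The inhibitory SMADs SMAD6 and SMAD7 fell (-1.58 ± 0.09 and -0.66 ± 0.10), as did ID2 and ID3 (-1.38 ± 0.11 and -1.21 ± 0.09) and the ligand BMP7 (-0.95 ± 0.12), which under vehicle differed by -0.17 ± 0.12. TGFB3, a TGF-beta ligand, read 9.33, 9.21 and 8.95 in APP_AG494 against 7.24, 7.57 and 7.64 in WT_DMSO (log2 fold change 1.68 ± 0.11, adjusted p = 7.3e-09) and was thus higher, as were TGFB1 (0.89 ± 0.08) and the receptor TGFBR2 (0.41 ± 0.10). The decoy receptor BAMBI stood at -0.55 ± 0.10 in APP_AG494 and at -1.73 ± 0.10 in APP_DMSO, and it was higher in treated than in untreated mutated cells (1.17 ± 0.10, adjusted p = 3e-06).

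Interferon-stimulated genes were higher in the mutated line under vehicle, and higher again with AG494. Of 41 measured members 32 were higher in APP_AG494 than in WT_DMSO and none was lower, the median difference being 2.17 on the log2 scale. Under vehicle 28 were higher (median 1.26), and 29 were higher in APP_AG494 than in APP_DMSO (median 0.67). Over all genes 13.4% were higher in APP_AG494 than in WT_DMSO, 10.2% under vehicle and 4.72% in APP_AG494 than in APP_DMSO. In WT_AG494 against WT_DMSO, where 1.97% of all genes were called, 4 members were higher. The mean over the 41 members was 8.57 to 9.02 on the APP_AG494 arrays against 6.78 to 6.85 on the WT_DMSO arrays, and the count stayed between 30 and 33 when any array or run was left out.

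OAS1, which senses viral RNA and activates RNase L, read 10.27, 10.99 and 10.84 in APP_AG494 against 6.60, 5.79 and 5.52 in WT_DMSO (log2 fold change 4.72 ± 0.24, adjusted p = 3.6e-10). IFIT1, which binds viral RNA lacking a host cap, read 10.84, 11.33 and 11.29 in APP_AG494 against 6.84, 6.28 and 6.43 in WT_DMSO (log2 fold change 4.63 ± 0.21, adjusted p = 8.8e-11). BST2, which tethers budding virus to the membrane, read 8.89, 10.10 and 9.82 in APP_AG494 against 5.78, 5.34 and 5.21 in WT_DMSO (log2 fold change 4.16 ± 0.28, adjusted p = 9.5e-09). In all 3 genes the APP_DMSO arrays lay between those of APP_AG494 and WT_DMSO, without overlap. IFI44L and IFI44, neighbours on chromosome 1, differed by 4.77 ± 0.18 and 4.34 ± 0.23. Against APP_DMSO the rise of IFI44L was 0.98 ± 0.18, adjusted p = 0.0015, while that of IFI44 did not pass (0.65 ± 0.23, adjusted p = 0.077). GBP4, an interferon-induced GTPase, differed by 4.25 ± 0.17 in APP_AG494 and 3.03 ± 0.17 in APP_DMSO.

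Regulators and sensors of the programme were higher as well. The RNA sensors RIGI and IFIH1 differed by 2.68 ± 0.14 and 3.07 ± 0.18, the transcription factors IRF1, IRF7 and IRF9 by 1.94 ± 0.09, 1.64 ± 0.09 and 1.76 ± 0.10. SAMD9, an antiviral factor that blocks translation, read 8.40, 8.57 and 8.61 in APP_AG494, 6.21, 6.80 and 7.70 in APP_DMSO and 5.87, 5.63 and 6.02 in WT_DMSO (log2 fold change against WT_DMSO 2.69 ± 0.20, adjusted p = 3.9e-08), and APP_DMSO replicate 3 was the one nearest to the treated cells. Its rise over APP_DMSO was 1.62 ± 0.20, adjusted p = 7.2e-05. Other members did not pass the test. ISG15, a ubiquitin-like modifier, read 7.67, 8.13 and 8.03 in APP_AG494 against 8.02, 8.22 and 8.29 in WT_DMSO (log2 fold change -0.24 ± 0.13, adjusted p = 0.23), and the groups overlapped. OAS2, a second synthetase of the OAS family, read 6.75, 6.93 and 7.05 in APP_AG494 against 6.73, 6.59 and 6.52 in WT_DMSO (log2 fold change 0.29 ± 0.11, adjusted p = 0.058) without overlap and without passing the test. MX1, OAS3, EPSTI1, PARP12, PARP14, GBP1 and GBP2 were not called either.

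Because 32 of the 41 interferon members were called higher, promoters were searched for the core of the interferon-stimulated response element. Those printed belong to the 4 list members with the largest rise among the ones that hold it, so the presence of the letters in them is a matter of choice. The letters searched were GAAANNGAA, and TTCNNTTTC on the other strand, in the 250 bases before and 50 bases after each gene's start in RefSeq (GRCh38.p14), all 4 on the + strand, and capitals mark each match. They lie at chr11:313790-314089 (IFITM1), chr1:78620198-78620497 (IFI44L), chr10:89392373-89392672 (IFIT1) and chr1:78649539-78649838 (IFI44).
IFITM1: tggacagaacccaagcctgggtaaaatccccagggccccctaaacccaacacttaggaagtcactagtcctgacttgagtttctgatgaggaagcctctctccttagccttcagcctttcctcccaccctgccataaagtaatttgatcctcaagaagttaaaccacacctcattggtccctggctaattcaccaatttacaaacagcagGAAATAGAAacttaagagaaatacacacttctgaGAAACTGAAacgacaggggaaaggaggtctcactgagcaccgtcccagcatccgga
IFI44L: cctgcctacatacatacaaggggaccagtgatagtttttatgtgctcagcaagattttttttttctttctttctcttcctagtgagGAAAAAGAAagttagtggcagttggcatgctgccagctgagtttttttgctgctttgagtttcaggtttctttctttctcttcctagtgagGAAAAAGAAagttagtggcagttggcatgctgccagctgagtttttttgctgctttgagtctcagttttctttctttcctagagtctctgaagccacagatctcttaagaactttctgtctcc
IFIT1: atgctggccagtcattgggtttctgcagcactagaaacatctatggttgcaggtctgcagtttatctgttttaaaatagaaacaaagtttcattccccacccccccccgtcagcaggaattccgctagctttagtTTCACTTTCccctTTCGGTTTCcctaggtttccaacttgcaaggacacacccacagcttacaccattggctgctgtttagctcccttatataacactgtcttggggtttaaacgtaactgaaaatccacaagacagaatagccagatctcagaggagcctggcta
IFI44: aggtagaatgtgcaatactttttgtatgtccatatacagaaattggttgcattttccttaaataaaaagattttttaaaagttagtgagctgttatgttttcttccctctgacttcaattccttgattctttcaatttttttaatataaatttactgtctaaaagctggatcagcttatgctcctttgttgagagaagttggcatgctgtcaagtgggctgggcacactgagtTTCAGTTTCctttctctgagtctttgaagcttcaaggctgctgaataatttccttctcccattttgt

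IFITM1, IFI44L and IFIT1 hold 2 matches each and IFI44 holds 1. Of the 33 measured list members with a RefSeq promoter, 25 (75.8%) hold the letters, against 1333 of 14425 measured genes (9.24%) and 4 of 34 mitosis genes (11.8%). Among the members that were called higher 18 of 26 (69.2%) hold them, and so do all 7 of those that were not called. A match is a description of the sequence and not evidence of binding.

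**Figure D3:**
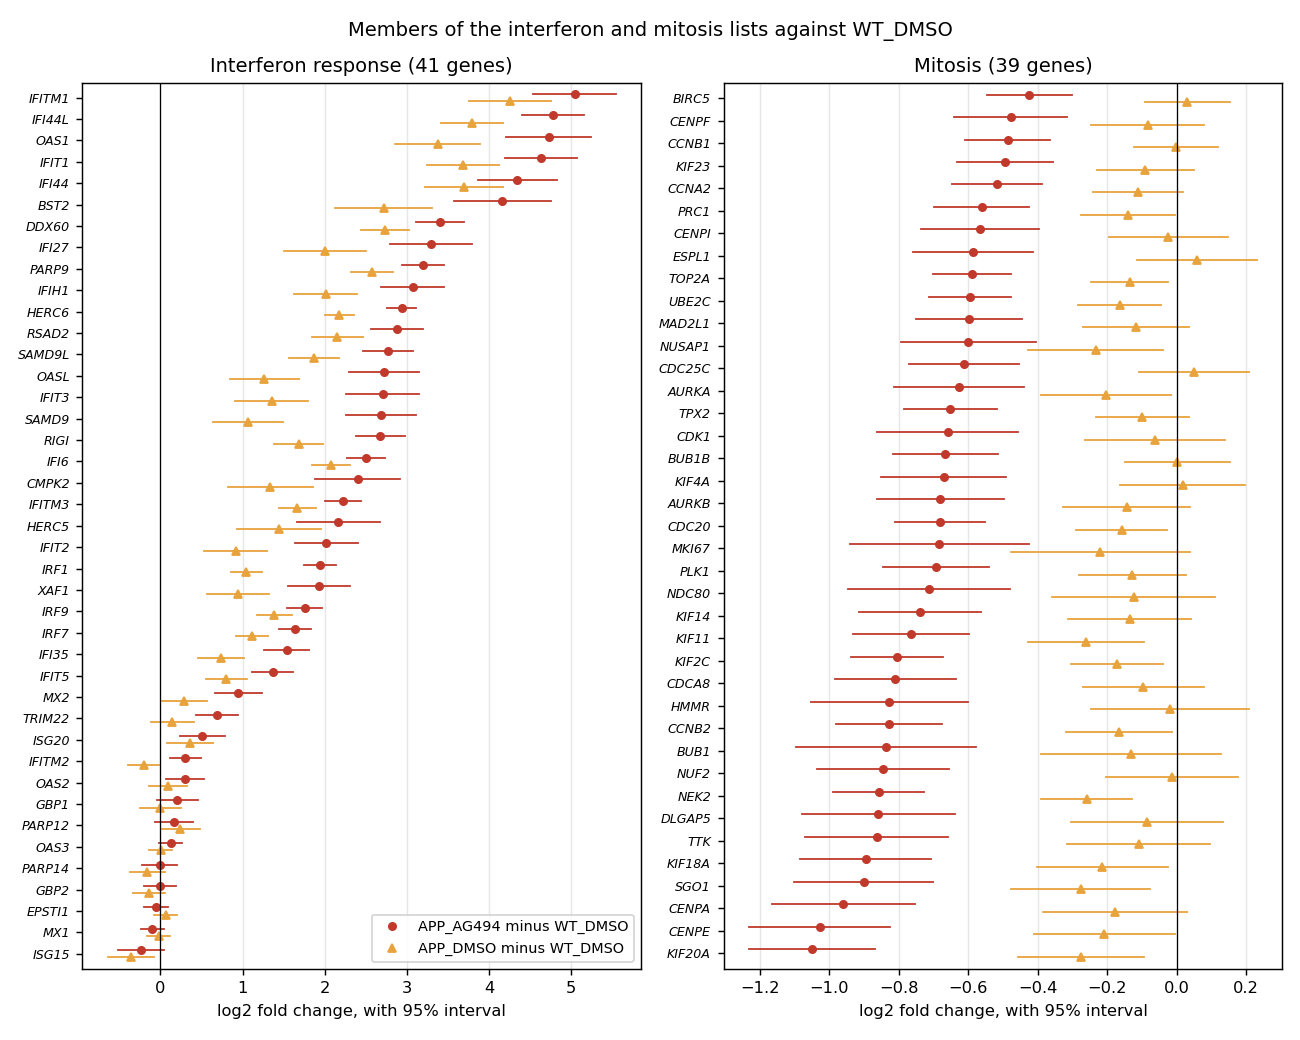
Log2 fold changes of the 41 interferon members (left) and 39 mitosis members (right) in APP_AG494 and APP_DMSO, each against WT_DMSO, with bars for the 95% interval. Of the interferon genes 32 were called higher in APP_AG494 (median 2.17) and 28 in APP_DMSO (median 1.26), whereas all 39 mitosis genes lie left of 0 in APP_AG494 (median -0.68) and their median is -0.13 in APP_DMSO.

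Genes of MHC class I antigen presentation were higher too. Of 20 measured members 16 rose and none fell (median 0.61), against 11 under vehicle (median 0.28) and 12 higher in APP_AG494 than in APP_DMSO. The shares of all genes called higher were 13.4% against WT_DMSO, 10.2% under vehicle and 4.72% against APP_DMSO. PSMB9, a subunit that converts the proteasome to the immunoproteasome, read 8.46, 9.55 and 9.70 in APP_AG494 against 5.23, 5.00 and 5.22 in WT_DMSO (log2 fold change 4.09 ± 0.30, adjusted p = 2.9e-08). NLRC5, the transactivator of class I genes, read 8.09, 8.83 and 9.06 in APP_AG494, 6.75, 7.52 and 7.05 in APP_DMSO and 5.51, 5.55 and 5.48 in WT_DMSO (log2 fold change against WT_DMSO 3.14 ± 0.17, adjusted p = 6.3e-10). PSMB8, the partner subunit of PSMB9, differed by 2.89 ± 0.25. In these genes every APP_AG494 array was more than 2 log2 units above every WT_DMSO array. HLA-B, a class I heavy chain, read 9.17, 9.96 and 9.97 in APP_AG494 against 6.96, 7.01 and 6.89 in WT_DMSO (log2 fold change 2.74 ± 0.17, adjusted p = 2.7e-09) and rose by 1.49 ± 0.17, adjusted p = 3.2e-05 over APP_DMSO. Its probes can share sequence with other class I chains, whose transcripts they may also read. The light chain B2M differed by 0.55 ± 0.07, and the chaperones CALR and PDIA3, which serve all glycoproteins, did not differ detectably (0.01 ± 0.05 and 0.02 ± 0.04).

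NF-kappaB targets and adhesion molecules rose as well. Of 23 measured members 14 were higher in APP_AG494 than in WT_DMSO and 1, TNFAIP8, was lower (median 0.34), while under vehicle 4 were higher and 2 lower, and 13 were higher in APP_AG494 than in APP_DMSO. Of all genes 13.4% were higher and 12.5% lower against WT_DMSO, 10.2% and 7.14% under vehicle, and 4.72% were higher against APP_DMSO. VCAM1, an adhesion molecule for leukocytes, read 9.80, 9.90 and 10.03 in APP_AG494, 7.98, 8.52 and 8.75 in APP_DMSO and 7.15, 7.71 and 8.13 in WT_DMSO (log2 fold change against WT_DMSO 2.25 ± 0.17, adjusted p = 5.1e-08). ICAM1, a second such molecule, read 7.71, 7.99 and 8.36 in APP_AG494, 6.78, 6.67 and 7.16 in APP_DMSO and 6.28, 6.43 and 5.98 in WT_DMSO (log2 fold change against WT_DMSO 1.79 ± 0.15, adjusted p = 1.4e-07). IL32, a cytokine, read 7.95, 7.76 and 7.79 in APP_AG494, 6.54, 6.36 and 6.22 in APP_DMSO and 5.77, 5.82 and 5.82 in WT_DMSO (log2 fold change against WT_DMSO 2.03 ± 0.09, adjusted p = 8.8e-11). In all 3 genes the APP_AG494 arrays were above every APP_DMSO and WT_DMSO array. The inhibitors NFKBIA and TNFAIP3, which end NF-kappaB signalling, differed by 0.79 ± 0.07 and 0.79 ± 0.08, and the subunit RELB by 0.78 ± 0.10. Under vehicle the same 3 genes differed by 0.21 ± 0.07, 0.12 ± 0.08 and 0.10 ± 0.10, and none passed. CCL2 rose in wild-type cells with AG494 as well (2.44 ± 0.26, adjusted p = 0.0002), as did VCAM1 (1.37 ± 0.17, adjusted p = 0.00089), while ICAM1 did not pass there (0.18 ± 0.15, adjusted p = 0.63). CXCL1, a neutrophil chemokine, read 6.30, 6.27 and 6.41 in APP_AG494 against 6.33, 6.37 and 6.40 in WT_DMSO (log2 fold change -0.04 ± 0.07, adjusted p = 0.79) and overlapped.

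Genes of the cell cycle were lower. All 39 measured mitosis genes were lower in APP_AG494 than in WT_DMSO (median -0.68), and all 39 were lower than in APP_DMSO (median -0.60), while 3 were lower in APP_DMSO than in WT_DMSO (median -0.13) and 7 in WT_AG494 (median -0.22). Over all genes 12.5% were lower in APP_AG494 than in WT_DMSO, 7.06% lower than in APP_DMSO and 7.14% lower under vehicle. In WT_AG494 against WT_DMSO 1.97% of all genes were called. The 39 calls against WT_DMSO were also made under each alternative run for this list, which did not include a minimum fold, and the run medians were -0.64, -0.71 and -0.71. KIF20A, a kinesin of cytokinesis, read 9.99, 10.07 and 9.71 in APP_AG494 against 10.99, 11.00 and 10.93 in WT_DMSO (log2 fold change -1.05 ± 0.09, adjusted p = 1.1e-07). CENPE, a kinesin of the kinetochore, read 8.43, 8.21 and 8.33 in APP_AG494 against 9.50, 9.08 and 9.46 in WT_DMSO (log2 fold change -1.03 ± 0.10, adjusted p = 5e-07). CENPA, the histone variant that marks centromeres, read 9.77, 9.47 and 9.43 in APP_AG494 against 10.59, 10.39 and 10.58 in WT_DMSO (log2 fold change -0.96 ± 0.10, adjusted p = 1.3e-06). The APP_AG494 arrays of all 39 genes lay under all WT_DMSO arrays, as did those of 13.3% of all genes tested. Fold changes reached down in size to -0.43 ± 0.06 for BIRC5, a chromosomal passenger protein, and the proliferation marker MKI67 differed by -0.68 ± 0.12 and the kinases PLK1, AURKB and CDK1 by -0.69 ± 0.07, -0.68 ± 0.09 and -0.66 ± 0.10.

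Of 45 measured DNA replication genes 35 were lower in APP_AG494 than in WT_DMSO and 1 was higher (median -0.31), and 35 were lower than in APP_DMSO. In APP_DMSO 1 was lower and 2 were higher than in WT_DMSO, and none was called in WT_AG494, where the median was -0.0023. Over all genes 12.5% were lower in APP_AG494 than in WT_DMSO, 7.06% lower than in APP_DMSO and 7.14% lower under vehicle. The 35 lower than in WT_DMSO became 22 when only the 6 arrays entered the fit. They were 24 without run 2 or WT_DMSO replicate 3. CDC7, the kinase that fires origins, read 9.29, 8.97 and 9.13 in APP_AG494 against 9.96, 9.56 and 9.80 in WT_DMSO (log2 fold change -0.65 ± 0.12, adjusted p = 0.0007). ORC6, a subunit of the origin recognition complex, read 10.57, 10.19 and 10.37 in APP_AG494 against 10.88, 10.86 and 11.05 in WT_DMSO (log2 fold change -0.55 ± 0.08, adjusted p = 4e-05). POLA2, a subunit of the polymerase alpha-primase complex, read 9.65, 9.88 and 9.84 in APP_AG494 against 10.22, 10.28 and 10.40 in WT_DMSO (log2 fold change -0.51 ± 0.07, adjusted p = 2.5e-05). The groups overlapped in none of these 3 genes. The repressor E2F7 had the largest fall of the list (-0.67 ± 0.07) and had fallen under vehicle too (-0.46 ± 0.07). The sliding clamp PCNA differed by -0.36 ± 0.05 and the helicase subunit MCM3 by -0.17 ± 0.08, adjusted p = 0.12, which did not pass. CCNE1, the cyclin of S phase entry, rose (0.26 ± 0.06).

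Of 28 measured replication-dependent histones, which are transcribed in S phase, 22 fell and 2 rose (median -0.42), against 8 and 2 under vehicle, and 19 were lower than in APP_DMSO. Over all genes 12.5% fell and 13.4% rose, against 7.14% and 10.2% under vehicle, and 7.06% were lower than in APP_DMSO. H1-3, a linker histone, read 10.02, 9.83 and 10.07 in APP_AG494 against 11.43, 11.20 and 11.19 in WT_DMSO (log2 fold change -1.30 ± 0.12, adjusted p = 3.1e-07). H2BC3, a core histone, read 10.50, 10.41 and 10.61 in APP_AG494 against 11.65, 11.85 and 11.67 in WT_DMSO (log2 fold change -1.22 ± 0.10, adjusted p = 1.4e-07). H2AC25, another core histone, read 9.12, 9.30 and 9.49 in APP_AG494 against 10.84, 10.69 and 11.42 in WT_DMSO (log2 fold change -1.68 ± 0.14, adjusted p = 1.2e-07), but it was lower than WT_DMSO in WT_AG494 and APP_DMSO too (-1.37 ± 0.14 and -1.14 ± 0.14) and not lower in APP_NOSCA than in WT_NOSCA (0.38 ± 0.14, adjusted p = 0.079). The first 3 of these differences share the WT_DMSO arrays, so that a deviation of those arrays and a response cannot be told apart. H2BC21 and H2BC12 rose (1.13 ± 0.11 and 0.69 ± 0.11), though 1 of 3 probe sets of H2BC21 was higher. Histone genes are near-identical copies, and a probe may read several of them.

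Inhibitors of the cell cycle were not uniformly higher. Among 14 measured CDK inhibitors and D cyclins 1 rose (7.14%) and 6 fell (42.9%), beside 13.4% and 12.5% of all genes. Their median was -0.12, and 3 falls were left without run 2. CDKN1A, the p21 inhibitor, read 13.37, 13.17 and 13.28 in APP_AG494 against 12.95, 12.97 and 12.25 in WT_DMSO (log2 fold change 0.55 ± 0.13, adjusted p = 0.0055), a rise that did not pass when only the 6 arrays were fitted. CDKN1C, the p57 inhibitor, read 8.88, 8.62 and 8.46 in APP_AG494 against 11.53, 10.44 and 9.44 in WT_DMSO (log2 fold change -1.82 ± 0.25, adjusted p = 3.4e-05), with WT_DMSO arrays about 2 units apart. CDKN1B, the p27 inhibitor, overlapped between the groups (-0.33 ± 0.09, adjusted p = 0.011) and lost its call without the replicate block, without run 2 or run 3, and without APP_AG494 replicate 3 or WT_DMSO replicate 1. CCND1, the D cyclin of growth factor signalling, differed by -0.25 ± 0.05, and the kinases CDK4 and CDK6 did not differ detectably (-0.05 ± 0.07 and 0.10 ± 0.06).

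**Figure D4:**
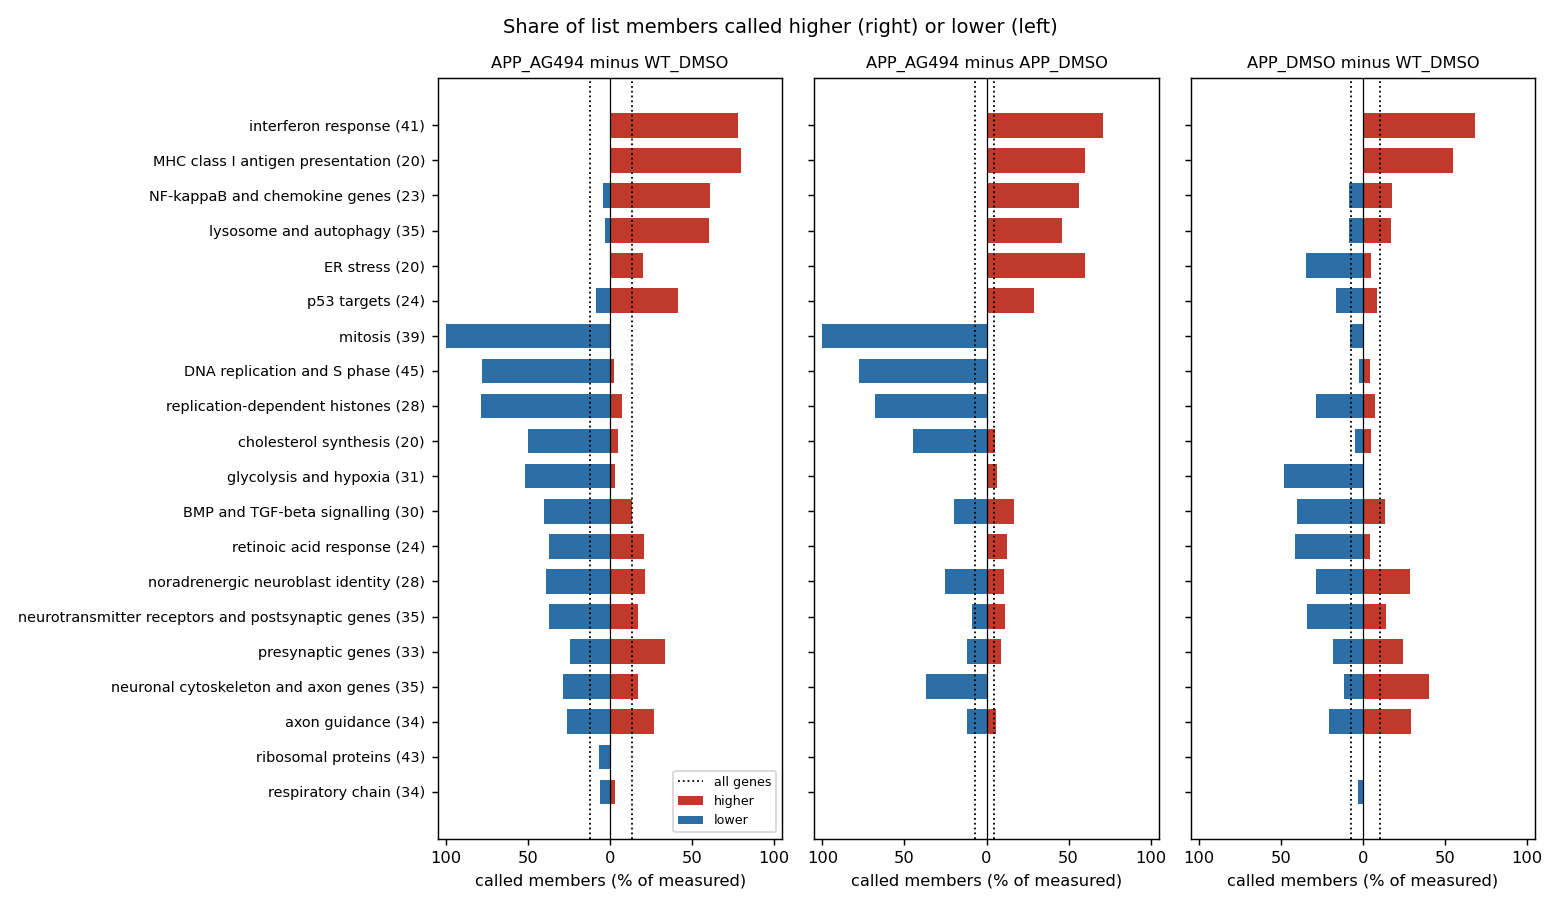
Share of the measured members of 20 gene lists called higher (bars to the right) or lower (bars to the left), in percent, for APP_AG494 minus WT_DMSO, APP_AG494 minus APP_DMSO and APP_DMSO minus WT_DMSO, with dotted lines at the share over all genes. Interferon and class I lists reach 78.0% and 80% on the higher side in APP_AG494 against WT_DMSO, and mitosis genes reach 100% on the lower side in both comparisons of APP_AG494.

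Cholesterol genes were called lower more often than higher, and lysosomal genes higher more often than lower. Of 20 measured cholesterol genes 10 were lower and 1 higher in APP_AG494 than in WT_DMSO (median -0.26), 1 was lower under vehicle, and 8 were lower in WT_AG494 than in WT_DMSO, against 9 lower in APP_AG494 than in APP_DMSO. Over all genes 12.5% were lower and 13.4% higher in APP_AG494 than in WT_DMSO. The shares lower were 7.14% under vehicle and 7.06% against APP_DMSO, and in WT_AG494 against WT_DMSO 1.97% were called. DHCR7, which catalyses the last step of the pathway, read 9.26, 9.28 and 9.26 in APP_AG494, 9.31, 9.26 and 9.12 in WT_AG494 and 9.71, 9.73 and 9.85 in WT_DMSO (log2 fold change of APP_AG494 against WT_DMSO -0.49 ± 0.08, adjusted p = 0.00026). The arrays of both treated groups lay under all WT_DMSO arrays. HMGCS1, an early enzyme, differed by -0.47 ± 0.10, a call lost without run 2, and TM7SF2, a sterol reductase, was the member that rose (0.41 ± 0.06). Of 35 measured lysosome and autophagy genes 21 were higher and 1, GLA, lower (median 0.34), against 6 higher under vehicle, where 10.2% of all genes were higher. The 21 became 17 without run 1 and 16 without run 2. GPNMB, a glycoprotein of lysosomes and melanosomes, read 6.99, 6.81 and 7.16 in APP_AG494, 5.58, 5.60 and 5.56 in APP_DMSO and 5.55, 5.18 and 5.56 in WT_DMSO (log2 fold change against WT_DMSO 1.56 ± 0.15, adjusted p = 8.2e-07). In wild-type cells AG494 raised it by 1.44 ± 0.15. The proteases CTSD and CTSA differed by 0.55 ± 0.08 and 0.64 ± 0.07, the proton pump subunit ATP6V0D1 by 0.55 ± 0.06 and the regulator TFEB by 0.37 ± 0.12.

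Counts for ER stress and redox genes varied with the runs and are set beside 13.4% of all genes higher and 12.5% lower in APP_AG494 than in WT_DMSO. Of 20 ER stress genes 4 were higher and none lower in APP_AG494 than in WT_DMSO, and 12 were higher than in APP_DMSO, while under vehicle 1 was higher and 7 lower. SELENOS, a factor of ER-associated degradation, read 11.19, 11.16 and 11.20 in APP_AG494 against 10.92, 10.73 and 10.59 in WT_DMSO (log2 fold change 0.44 ± 0.07, adjusted p = 9e-05), while DNAJB9, a co-chaperone, overlapped (0.38 ± 0.09, adjusted p = 0.0039) and lost its call without the replicate block and with the mean of probe sets. Without run 1 or without the replicate block the 4 became 2. Of 24 NRF2 and glutathione genes 7 rose and 2 fell, with 4 and 3 rises left without run 1 and without run 2. NQO1, a quinone reductase and a standard NRF2 target, read 10.83, 10.88 and 11.13 in APP_AG494, 9.82, 9.98 and 9.68 in APP_DMSO and 8.77, 9.08 and 8.73 in WT_DMSO (log2 fold change against WT_DMSO 2.09 ± 0.09, adjusted p = 7e-11), with APP_DMSO between the others. SQSTM1, an autophagy receptor under the same factor, differed by 0.54 ± 0.07. AKR1C1 and AKR1C3, also known as NRF2 targets, fell (-0.99 ± 0.12 and -1.11 ± 0.21), and their near-identical sequences can share probes. The call of AKR1C3 was lost without run 1. Of 17 metallothionein and zinc transport genes 5 rose and 2 fell, against 5 and 3 under vehicle, and 1 was higher and 1 lower in APP_AG494 than in APP_DMSO. MT1F, a metallothionein, read 9.51, 9.55 and 9.81 in APP_AG494 against 7.31, 7.38 and 8.53 in WT_DMSO (log2 fold change 1.89 ± 0.21, adjusted p = 3.3e-06), and the zinc exporter SLC30A1 read 10.67, 10.42 and 10.27 in APP_AG494 against 9.27, 8.83 and 8.78 in WT_DMSO (95% interval of the log2 difference 1.21 to 1.78, adjusted p = 3.3e-07). Both were also higher in WT_AG494 than in WT_DMSO (1.37 ± 0.21 and 0.88 ± 0.13), and between APP_NOSCA and WT_NOSCA, on other arrays, they differed by 0.91 ± 0.21 and 0.55 ± 0.13. MT1F was not higher in APP_AG494 than in APP_DMSO.

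Genes called the same way against APP_DMSO and against WT_DMSO were named by the 6 largest changes against APP_DMSO in each direction. That choice used both comparisons, so the values describe the genes and test nothing. The difference under vehicle was not part of the choice, and some of these genes had differed the other way there. The pools held 551 higher and 816 lower genes. Over all genes 29 were called in opposite directions in APP_AG494 and in APP_DMSO against WT_DMSO. MGP, an inhibitor of calcification in the matrix, had 9.65, 9.65 and 10.10 in APP_AG494, 7.30, 7.70 and 8.16 in APP_DMSO and 7.60, 6.87 and 6.92 in WT_DMSO. The other 5 were TAP1, SAMD9, NLRC5, VCAM1 and HLA-B, all described above. On the lower side INSM1, a zinc finger factor of neuroendocrine cells, had 6.61, 6.53 and 7.23 in APP_AG494, 9.56, 9.51 and 9.59 in APP_DMSO and 7.13, 8.05 and 8.35 in WT_DMSO. The INSM1 values in WT_AG494 were 6.63, 7.19 and 6.95, and the APP_AG494 arrays overlapped with those of WT_AG494 and of WT_DMSO. CHRND, the delta subunit of the muscle nicotinic receptor, had 8.09, 8.14 and 7.89 in APP_AG494, 9.38, 9.55 and 9.01 in APP_DMSO and 9.41, 9.31 and 7.98 in WT_DMSO, and its call against WT_DMSO was lost without run 1 or run 2. Without WT_DMSO replicate 3, far under its group, the CHRND difference from WT_DMSO was -1.12 and was called. The adhesion molecule CHL1 (-0.52 ± 0.14, with overlap, lost without run 3 or APP_AG494 replicate 3) and the cyclin CCNA1 (-0.42 ± 0.11, lost without run 1, run 2 or APP_AG494 replicate 3) had been higher under vehicle (0.78 ± 0.14 and 0.67 ± 0.11). ABTB3 and the aggrecan-cleaving protease ADAMTS5 had not differed detectably there (-0.18 ± 0.24 and 0.21 ± 0.13). In APP_AG494 both were lower than in WT_DMSO (-1.64 ± 0.24 and -0.91 ± 0.13).

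**Figure D5:**
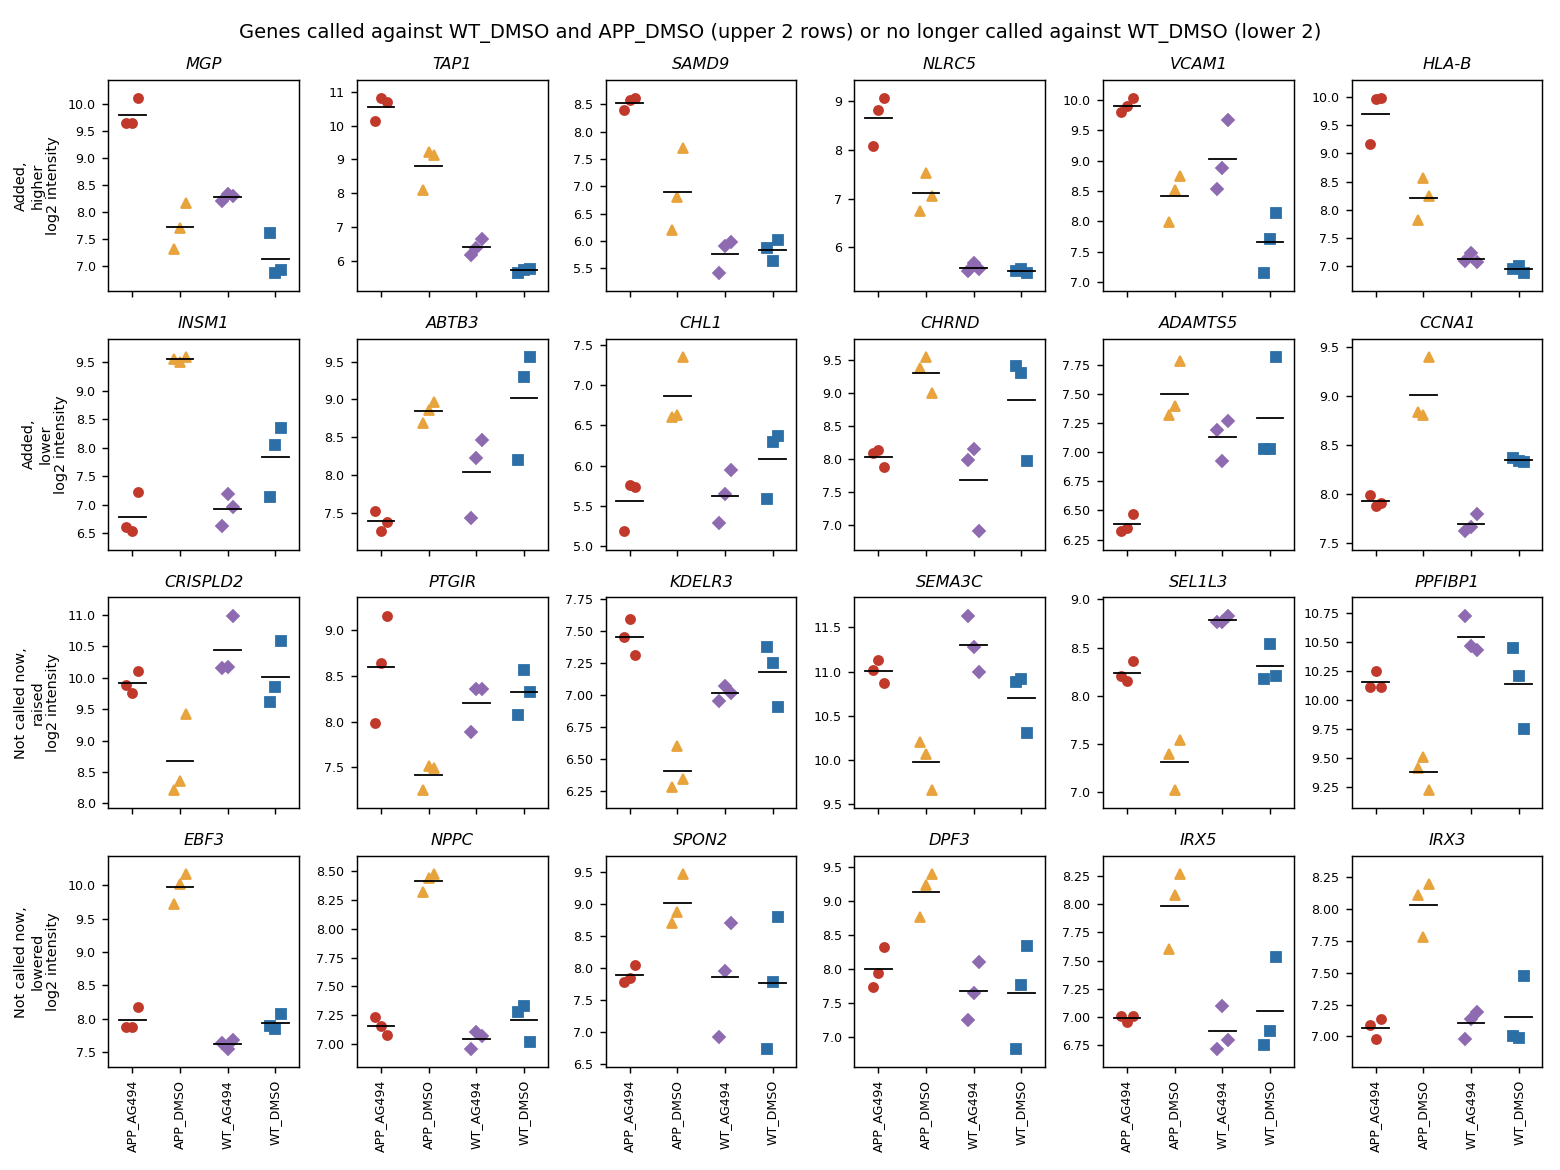
Log2 intensities on each array of APP_AG494, APP_DMSO, WT_AG494 and WT_DMSO for 24 genes, the upper 2 rows called against both WT_DMSO and APP_DMSO and the lower 2 rows called under vehicle and no longer called in APP_AG494 against WT_DMSO. EBF3 shows the second kind, with APP_DMSO dots near 10 and the other groups near 8.

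Other genes differed under vehicle and were no longer called after treatment. They were again named for their size, from 136 genes higher and 207 lower in APP_AG494 than in APP_DMSO, together 343 of 18132 genes. The choice used the vehicle comparison and the one against APP_DMSO, which share the APP_DMSO arrays. A deviation of those arrays and a response to AG494 cannot be told apart by this choice, and the values describe the genes. EBF3, a transcription factor of neuronal differentiation, had 7.88, 7.88 and 8.17 in APP_AG494, 9.72, 10.02 and 10.16 in APP_DMSO and 7.89, 7.84 and 8.07 in WT_DMSO. The interval of the difference between APP_AG494 and WT_DMSO ran over -0.15 to 0.24, while between the NOSCA groups EBF3 differed by 1.75 ± 0.09. NPPC, the C-type natriuretic peptide, had 7.24, 7.16 and 7.08 in APP_AG494, 8.32, 8.44 and 8.47 in APP_DMSO and 7.28, 7.33 and 7.02 in WT_DMSO, with an interval of -0.21 to 0.11. The homeobox neighbours IRX3 and IRX5 had intervals of -0.33 to 0.17 and -0.39 to 0.27 after differences of 0.88 and 0.93 under vehicle. For SPON2, a matrix protein, WT_DMSO itself spread over 6.74, 7.79 and 8.79, and the interval was -0.51 to 0.74, and for DPF3, a chromatin reader, it was 0.05 to 0.67.

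Of the genes no longer called that were higher in APP_AG494 than in APP_DMSO, the 6 with the largest change follow. CRISPLD2, a secreted glycoprotein, had 9.88, 9.76 and 10.11 in APP_AG494, 8.21, 8.36 and 9.43 in APP_DMSO and 9.61, 9.85 and 10.58 in WT_DMSO, and its interval against WT_DMSO was -0.50 to 0.31. SEMA3C, a secreted guidance cue, had 11.02, 11.13 and 10.87 in APP_AG494, 10.20, 10.07 and 9.66 in APP_DMSO and 10.88, 10.91 and 10.31 in WT_DMSO. The APP_AG494 and WT_DMSO arrays overlapped, with an interval of 0.07 to 0.54. KDELR3, a receptor that returns proteins to the ER, and PTGIR, the prostacyclin receptor, had intervals of 0.05 to 0.51 and -0.03 to 0.58, and PPFIBP1, a liprin, and SEL1L3 had -0.28 to 0.33 and -0.41 to 0.28. These are unadjusted 95% intervals, and a value that was not called is not shown to be equal to wild type.

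EGFR, the receptor that AG494 inhibits, read 11.07, 11.06 and 10.89 in APP_AG494 and 10.62, 10.66 and 10.97 in WT_DMSO with overlap (log2 fold change 0.26 ± 0.11, adjusted p = 0.087). ERBB2 and ERBB3 did not differ detectably (-0.01 ± 0.13 and -0.05 ± 0.08). ERBB4, the neuregulin receptor, read 9.02, 9.08 and 9.17 in APP_AG494 against 7.45, 8.12 and 8.47 in WT_DMSO (log2 fold change 1.08 ± 0.14, adjusted p = 2.5e-05), and it was higher in APP_DMSO too (0.95 ± 0.14). Of 19 measured members 4 rose (21.1%, beside 13.4% of all genes), the others being LRIG1, a negative regulator of the receptors (1.24 ± 0.16), the ligand NRG2 (0.85 ± 0.15) and the adaptor SHC1 (0.21 ± 0.06). The call of SHC1 was lost without the replicate block, without run 2 or run 3 and without WT_DMSO replicate 3.

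Outputs of ERK signalling moved in both directions. Of 34 members 10 rose (29.4%) and 9 fell (26.5%), beside 13.4% and 12.5% of all genes. Without run 2 the falls were 5. Under vehicle 6 members were higher and 11 lower, and in APP_AG494 7 were higher and 2 lower than in APP_DMSO. MYC, a growth-promoting transcription factor, read 7.14, 7.17 and 7.31 in APP_AG494, 7.67, 7.51 and 7.85 in APP_DMSO and 9.47, 8.98 and 9.04 in WT_DMSO (log2 fold change against WT_DMSO -1.96 ± 0.19, adjusted p = 6.7e-07). EGR1, an immediate early gene, differed by -0.89 ± 0.15 in APP_AG494 and -0.90 ± 0.15 in APP_DMSO. PHLDA1, an early response gene, read 11.67, 11.47 and 11.38 in APP_AG494 against 8.97, 9.82 and 10.35 in WT_DMSO (log2 fold change 1.80 ± 0.22, adjusted p = 1e-05), and DUSP4, a phosphatase that ends ERK activity, read 10.19, 10.18 and 10.38 in APP_AG494 against 8.86, 9.39 and 9.60 in WT_DMSO (log2 fold change 0.97 ± 0.14, adjusted p = 8e-05). Neither was called between APP_AG494 and APP_DMSO (-0.33 ± 0.22 and -0.03 ± 0.14). The inhibitors SPRY1 and SPRY4 were higher in APP_AG494 than in WT_DMSO (0.78 ± 0.13 and 0.59 ± 0.07), and under vehicle they differed by -0.11 ± 0.13 and 0.14 ± 0.07.

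Neuronal genes were called in both directions, beside 13.4% of all genes higher and 12.5% lower in APP_AG494 than in WT_DMSO. Of 28 noradrenergic identity genes 6 rose (21.4%) and 11 fell (39.3%), against 8 and 8 under vehicle. The falls were 6 without run 1 and 4 without run 2. In APP_AG494 3 were higher and 7 lower than in APP_DMSO. SLC18A2, the vesicular monoamine transporter, read 10.12, 9.47 and 9.14 in APP_AG494 against 9.11, 8.24 and 7.25 in WT_DMSO (log2 fold change 1.37 ± 0.20, adjusted p = 5.1e-05), a call that was lost without the replicate block. TH read 7.52, 7.50 and 7.51 in APP_AG494 against 9.61, 9.29 and 7.91 in WT_DMSO (log2 fold change -1.43 ± 0.35, adjusted p = 0.0058), and its call was lost without run 1 or run 2. In TH and SLC18A2 WT_DMSO replicate 3 was the lowest array of its group, and without it both were still called, TH at -1.75 and SLC18A2 at 1.20. LMO1, a transcriptional cofactor, differed by -1.19 ± 0.10, and the granule protein CHGB rose by 1.01 ± 0.09. Of 24 neuropeptide and secretogranin genes 6 rose (25%) and 8 fell (33.3%), against 4 and 5 under vehicle. The rises were 3 without run 1 and the falls 4 without run 2. In APP_AG494 2 were higher and 2 lower than in APP_DMSO. NPY, a peptide of sympathetic neurons, read 12.16, 11.88 and 11.79 in APP_AG494, 11.80, 11.39 and 11.24 in APP_DMSO and 10.68, 10.68 and 10.17 in WT_DMSO (log2 fold change against WT_DMSO 1.44 ± 0.12, adjusted p = 2.1e-07), and the gut peptide NMU read 10.08, 10.10 and 10.27 in APP_AG494, 10.58, 10.57 and 10.72 in APP_DMSO and 11.53, 11.43 and 11.42 in WT_DMSO (log2 fold change against WT_DMSO -1.31 ± 0.09, adjusted p = 7.9e-09). The APP_DMSO averages lay between the groups for both. CARTPT, a further peptide, overlapped (-1.49 ± 0.32, adjusted p = 0.002) and lost its call without run 1 or run 2.

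Synaptic genes were called in both directions, beside 13.4% of all genes higher and 12.5% lower in APP_AG494 than in WT_DMSO. Of 33 presynaptic genes 11 rose (33.3%) and 8 fell (24.2%), against 8 and 6 under vehicle. The rises were 5 without run 1 and 6 without run 2, and the falls 5 without run 1. In APP_AG494 3 were higher and 4 lower than in APP_DMSO. SV2C, a vesicle protein, read 6.50, 6.65 and 6.68 in APP_AG494 against 8.75, 8.96 and 8.66 in WT_DMSO (log2 fold change -2.18 ± 0.21, adjusted p = 6e-07). CPLX2 and CPLX1, the complexins that clamp vesicle fusion, differed by -1.75 ± 0.12 and -1.02 ± 0.10, and SYT7, a calcium sensor, by 0.76 ± 0.11. Of 35 receptor and postsynaptic genes 6 rose (17.1%) and 13 fell (37.1%), against 5 and 12 under vehicle. The rises were 3 without run 1 or run 2, and the falls 8 without run 2. In APP_AG494 4 were higher and 3 lower than in APP_DMSO. DRD2, the D2 dopamine receptor, read 8.09, 8.65 and 9.10 in APP_AG494, 8.80, 9.76 and 10.20 in APP_DMSO and 9.26, 9.98 and 10.37 in WT_DMSO (log2 fold change against WT_DMSO -1.25 ± 0.10, adjusted p = 8.6e-08). Pair by pair within the runs, DRD2 was lower in treated than in untreated mutated cells each time (-0.98 ± 0.10, adjusted p = 2e-05), and its call against WT_DMSO was lost without the replicate block. SHANK1, a postsynaptic scaffold, differed by -1.34 ± 0.15, and OPRD1, the delta-opioid receptor, by 1.15 ± 0.16, against OPRM1 at -3.33.

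CACNA2D3, an auxiliary calcium channel subunit, read 8.97, 9.27 and 9.34 in APP_AG494 against 5.91, 6.27 and 7.19 in WT_DMSO (log2 fold change 2.74 ± 0.19, adjusted p = 1.8e-08). SCN9A, the sodium channel of sympathetic and sensory neurons, read 11.69, 11.65 and 11.69 in APP_AG494 against 9.72, 10.00 and 10.22 in WT_DMSO (log2 fold change 1.69 ± 0.10, adjusted p = 1.1e-09), and both had risen under vehicle (3.11 ± 0.19 and 1.35 ± 0.10). Of 31 voltage-gated channel genes 6 rose (19.4%) and 7 fell (22.6%), beside 13.4% and 12.5% of all genes. The falls were 4 without run 1 or WT_DMSO replicate 3, and 3 without run 2. Under vehicle 9 channel genes were higher and 4 lower, and in APP_AG494 1 was higher and 2 lower than in APP_DMSO. Of 35 cytoskeleton and axon genes 6 were higher and 10 lower in APP_AG494 than in WT_DMSO, and 13 were lower and none higher than in APP_DMSO, while under vehicle 14 were higher and 4 lower. NEFM, the medium neurofilament chain, read 9.78, 9.82 and 9.91 in APP_AG494, 10.23, 10.34 and 10.45 in APP_DMSO and 11.21, 11.10 and 11.03 in WT_DMSO (log2 fold change against WT_DMSO -1.28 ± 0.10, adjusted p = 8.3e-08). The light chain NEFL differed by -0.85 ± 0.09, MAP1A, a microtubule protein, by 0.69 ± 0.06, and TUBA1A, an alpha-tubulin, by 0 ± 0.07, which did not pass. The 6 rises became 2 without run 1 and 3 without run 2 or WT_DMSO replicate 1, and the 10 falls became 5 without run 3 and 6 without run 2, APP_AG494 replicate 2 or replicate 3. Of 34 guidance genes 9 rose and 9 fell (26.5% each), against 10 and 7 under vehicle, and 2 were higher and 4 lower in APP_AG494 than in APP_DMSO. SLIT2, a repellent ligand, read 8.44, 8.47 and 8.58 in APP_AG494 against 10.70, 10.53 and 10.39 in WT_DMSO (log2 fold change -2.04 ± 0.10, adjusted p = 1.3e-10), and its receptor ROBO2 rose (1.21 ± 0.16). SEMA3A, another repellent, read 10.57, 10.30 and 10.28 in APP_AG494 against 8.70, 8.63 and 8.46 in WT_DMSO (log2 fold change 1.79 ± 0.11, adjusted p = 2.5e-09), and its receptor NRP1 rose too (1.44 ± 0.17).

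Of 44 matrix genes 8 rose (18.2%) and 15 fell (34.1%), against 5 and 15 under vehicle. Over all genes 13.4% were higher and 12.5% lower in APP_AG494 than in WT_DMSO. The rises were 4 without run 1 and 5 without run 2 or without replicate 1 or 2 of either group. In APP_AG494 5 matrix genes were higher and 4 lower than in APP_DMSO. COL4A1, a chain of basement membrane collagen, read 8.20, 8.29 and 8.26 in APP_AG494 against 10.71, 10.52 and 10.28 in WT_DMSO (log2 fold change -2.26 ± 0.16, adjusted p = 1.4e-08), and its partner COL4A2 differed by -1.64 ± 0.09. SMOC1, a matricellular protein that inhibits BMP signalling, had 10.31, 9.89 and 9.63 in APP_AG494, 11.64, 11.63 and 11.57 in APP_DMSO and 7.64, 8.05 and 8.39 in WT_DMSO. SMOC1 was lower in APP_AG494 than in APP_DMSO (-1.67 ± 0.24, adjusted p = 0.00027) and higher than in WT_DMSO (1.92 ± 0.24, adjusted p = 1.6e-05). Of 24 retinoic acid genes 9 fell (37.5%) and 5 rose (20.8%), against 10 and 1 under vehicle. In APP_AG494 none was lower and 3 were higher than in APP_DMSO. Against WT_DMSO no rise was left without run 2 or APP_AG494 replicate 3, and 1 without run 1, run 3 or WT_DMSO replicate 2. There were 2 rises without WT_DMSO replicate 1 and 3 without APP_AG494 replicate 1 or WT_DMSO replicate 3. NTRK2, the BDNF receptor, read 11.52, 11.34 and 11.10 in APP_AG494 against 12.12, 11.85 and 11.65 in WT_DMSO (log2 fold change -0.55 ± 0.08, adjusted p = 3.9e-05), and all 10 of its probe sets were called lower. The mesenchymal factors SNAI1 and SNAI2 fell (-1.23 ± 0.20 and -1.37 ± 0.17). Their list held 5 rises (17.9%) and 6 falls (21.4%) among 28 genes, against 1 and 7 under vehicle. Of the rises 2 were left without APP_AG494 replicate 2 and 3 without run 2 or WT_DMSO replicate 2. In the Notch pathway 1 of 22 genes rose (4.55%) and 6 fell (27.3%), against 3 and 7 under vehicle. Among the falls were the feedback gene NRARP (-1.05 ± 0.13) and the receptor NOTCH3 (-0.85 ± 0.08). Of 15 fibroblast and epithelial markers 3 rose (20%) and 2 fell (13.3%), against 2 and 2 under vehicle, with DCN at 1.42 ± 0.22 and COL1A1 at -1.11 ± 0.09.

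APP transcript itself read 12.16, 12.51 and 12.49 in APP_AG494, 12.26, 12.37 and 12.25 in APP_DMSO and 12.49, 12.61 and 12.61 in WT_DMSO. The array reads the amount of the transcript and not the mutation. The log2 fold change was -0.19 ± 0.07, adjusted p = 0.063 in APP_AG494 with overlapping arrays, and -0.28 ± 0.07, adjusted p = 0.011 in APP_DMSO, and treated and untreated mutated cells did not differ detectably (0.09 ± 0.07, adjusted p = 0.48). Under vehicle 3 of 24 genes of the APP family and its processing were higher and 3 lower. In APP_AG494 against WT_DMSO 6 of the 24 rose (25%) and 2 fell (8.33%), beside 13.4% and 12.5% of all genes. They included 3 parts of gamma-secretase, with PSEN2 at 0.52 ± 0.08, NCSTN at 0.36 ± 0.05 and PSENEN at 0.28 ± 0.07. The peptide-degrading enzyme ECE1 differed by 0.46 ± 0.05, and ECE2 by 0.59 ± 0.08, where 5 of 9 probe sets were higher and the call was lost with the mean of probe sets. Of 29 genes from Alzheimer risk loci 2 rose and 2 fell, or 6.90% in each direction. CLU, the chaperone clusterin, read 9.58, 9.68 and 9.92 in APP_AG494 against 7.72, 7.94 and 8.61 in WT_DMSO (log2 fold change 1.64 ± 0.10, adjusted p = 2.5e-09), with 1 of its 2 probe sets higher, and ADAMTS4, a matrix protease, fell (-0.77 ± 0.12).

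Counts among glycolysis, hypoxia and p53 genes changed with the runs and, for p53 targets, with WT_DMSO replicate 3. Of 31 glycolysis and hypoxia genes 16 fell (51.6%) and 1 rose (3.23%), beside 12.5% and 13.4% of all genes. Their median was -0.19, and the falls were 5 without run 1 and 7 without run 2. Under vehicle 15 were lower and none higher (median -0.29), and in APP_AG494 none was lower and 2 were higher than in APP_DMSO. The run medians of APP_AG494 minus WT_DMSO were -0.30, -0.27 and -0.04. VEGFA, a hypoxia-inducible growth factor, read 9.52, 9.44 and 9.45 in APP_AG494 against 11.59, 11.26 and 9.74 in WT_DMSO (log2 fold change -1.39 ± 0.33, adjusted p = 0.0047), and WT_DMSO replicate 3 came close to the treated arrays. ALDOC, a glycolytic enzyme, read 8.92, 9.17 and 8.87 in APP_AG494 against 11.00, 10.89 and 9.36 in WT_DMSO (log2 fold change -1.43 ± 0.26, adjusted p = 0.00057). VEGFA lost its call without run 1 or run 2, and ALDOC without run 1, while both kept it without WT_DMSO replicate 3. Without that array 16 genes of the list fell. PFKP, a phosphofructokinase, read 10.93, 10.98 and 11.03 in APP_AG494 against 12.30, 12.07 and 11.90 in WT_DMSO (log2 fold change -1.11 ± 0.12, adjusted p = 1.8e-06), with no such array among its values, and ADM, a hypoxia-inducible peptide, rose (0.84 ± 0.19, adjusted p = 0.003) with overlap, a call lost without run 2 or run 3. Of 24 p53 targets 10 rose (41.7%) and 2 fell (8.33%), with run medians of 0.0004, 0.055 and 0.47. Under vehicle 2 were higher and 4 lower, and in APP_AG494 7 were higher and none lower than in APP_DMSO. The 10 became 4 without WT_DMSO replicate 3, APP_AG494 replicate 1 or 3, or run 3, 5 without run 2, and 4 without the replicate block. EDA2R, a receptor of the TNF receptor family, read 10.68, 10.18 and 10.11 in APP_AG494 against 9.26, 9.26 and 8.43 in WT_DMSO (log2 fold change 1.34 ± 0.18, adjusted p = 2.1e-05) and FAS, another such receptor, read 6.76, 6.29 and 6.44 in APP_AG494 against 6.21, 5.56 and 5.30 in WT_DMSO (log2 fold change 0.81 ± 0.15, adjusted p = 0.00068). Neither overlapped, and in both WT_DMSO replicate 3 was the lowest array, without which EDA2R differed by 1.13 and FAS by 0.67, both called. In 29 genes of the ATF4 response 5 rose (17.2%) and 8 fell (27.6%), against 5 and 5 under vehicle. The rises were 3 without APP_AG494 replicate 3, and the falls 3 without run 1 or run 2 and 5 without replicate 1 or 2 of either group. In APP_AG494 none was higher and 4 were lower than in APP_DMSO.

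Of 43 ribosomal protein genes 3 fell (6.98%, beside 12.5% of all genes) and none rose (median -0.07). The falls were 0 without run 1 or run 2, 1 without APP_AG494 replicate 1 or WT_DMSO replicate 1 or 2, and 5 without WT_DMSO replicate 3. With the mean of all probe sets of a gene 13 fell. Of 34 respiratory chain genes 1 rose and 2 fell (median -0.04). GAPDH, a glycolytic enzyme often used for reference, read 13.52, 13.51 and 13.49 in APP_AG494 and 13.55, 13.48 and 13.48 in WT_DMSO, and the interval of its difference was -0.09 to 0.09.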

How the data were processed

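RNA from 21 arrays was analysed, 7 groups of 3. The deposited values are log2 intensities per probe set, which the authors obtained by RMA; the submitters' processing notes name RMA and affy, and versions are not given in the sources used here. Control probe sets were left out, 44988 of 49372 probe sets carried 1 gene symbol, and each of 18132 genes was read from its brightest such probe set on average over the 21 arrays. Symbols were updated through RefSeq for 44961 probe sets. No dim gene was removed.

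One linear model in limma 3.58.1 (R 4.3.3) held all 21 arrays, with a coefficient per group and the run of title numbers as a replicate block, and two-sided p-values were adjusted by Benjamini-Hochberg within each comparison at 0.05. The run pairs the arrays: deviations from group means correlated at 0.226 to 0.685 in 63 same-run pairs and at -0.529 to 0.0889 in 126 others, and all 21 arrays were closest to one of their own run. Genes were named by rule: the 10 largest non-overlapping rises and falls, the 6 largest changes each way against APP_DMSO among genes also called against WT_DMSO and among genes no longer called, up to 5 called and 2 uncalled members of each list with at least 3 called, APP and the EGF receptor family, and for printed promoters the 4 called interferon genes with the largest change that hold the motif. Further list members were named for their role, after their values had been seen. The 36 lists and all members were chosen with earlier results of these data known. The number of arrays limits the precision. The fit was tested on simulated data. Alternatives varied the block, the arrays, the probe set, the normalization, the prior, the weights and a minimum fold.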

Additional observations from a re-analysis of the deposited data

Results flagged for a closer look

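For 18 of the named genes the response to AG494 differed between the lines, by the interaction term of the limma fit (APP_AG494 minus APP_DMSO, less WT_AG494 minus WT_DMSO) at an adjusted p under 0.05, as it did for 229 of 18132 genes (1.26%). The named genes were chosen for differences that share the APP_AG494 arrays with this term, 6 of the 18 for the change against APP_DMSO that is one part of it, so the count is a description. In the mutated line the response was more positive for SAMD9 (1.69), ADM (1.64), NLRC5 (1.49), HLA-B (1.31), ICAM1 (0.97), ELFN1 (0.96), IL32 (0.89), H2AC25 (0.84), NQO1 (0.77), CPLX1 (0.76), TNFRSF9 (0.71) and SMAD6 (0.56), on the log2 scale. It was more negative for MT1F (-1.85), INSM1 (-1.84), ADAMTS5 (-0.96), CHL1 (-0.84), DRD2 (-0.74) and NRXN2 (-0.46). INSM1 fell in both lines (-2.76 ± 0.18 in mutated and -0.92 ± 0.18 in wild-type cells), and MT1F differed by -0.48 ± 0.21 in mutated and 1.37 ± 0.21 in wild-type cells. H2AC25 differed by -0.54 ± 0.14 in mutated and -1.37 ± 0.14 in wild-type cells, and both the wild-type value and the term rest on the WT_DMSO arrays, whose deviation cannot be told apart from a response.

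Probe sets that name no single gene were outside the comparisons of genes. Of 1832 with several symbols 396 (21.6%) were called between APP_AG494 and WT_DMSO, and of 2473 with no listed symbol 498 (20.1%). Groups of 3 arrays are too small for the test of a single array that stands apart.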

How the results depend on the processing

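Of 253 named genes (239 where the dimmest genes were left out) none reversed in APP_AG494 against WT_DMSO under the alternatives run gene by gene, which left out the minimum fold and the test of all probe sets. Without the replicate block 22 lost their call, in the 6-array fit 15, and without run 1, 2 or 3 (replicate 1, 2 or 3 of every group) 20, 22 and 11. The 4693 genes called there became 2830 without the replicate block, 2714 with the 6 arrays alone, 10920 when all probe sets were tested, 1100 with a fold of at least 1.5, and 2636 to 4288 when an array or run was left out. The 2137 called against APP_DMSO became 861, 1093, 4979 and 358 under the same settings, 1033 with 9 arrays, 3786 with array weights, and 558 to 1988 with an array or run left out. Counts of list members were repeated under the alternatives only against WT_DMSO, so those against APP_DMSO and under vehicle carry no such check. The median of the NOSCA genes against WT_DMSO, 0.33, was 0.29 with the mean of probe sets and 0.36 without the dimmest genes. Against APP_DMSO it was 0.00564 and turned to -0.00283 with array weights, -0.000239 without APP_AG494 replicate 2, -0.00600 without APP_DMSO replicate 3 and -0.00249 without replicate 3, over a range of -0.00600 to 0.0173 with an array or run left out. The cause of these shifts was not tested, beyond the fewer arrays or more features that a setting holds. Fluorescence of dim probe sets limits small differences.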
